A study of Mus musculus with 2 samples.

Results

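Exonic Sox4 peaks are the 285 regions of a Sox4 binding list that its annotation places in an exon of a gene, out of 8730 regions in all (3.26%, exact Clopper-Pearson 95% interval 2.90 to 3.66%). The members were chosen by this deposited position class alone, and their tags, folds and scores took no part in the choice. The list comes from 1 streptavidin pull-down library (bioChIP) of C57BL/6 mouse progenitor B cells from embryonic fetal liver, in which tagged Sox4 was captured from sonicated chromatin. The cells had received 4 retroviral constructs in sequence, encoding the biotin ligase BirA, the p190 Bcr-Abl oncogene, SE-Cre and BAP-Sox4, with a sort after every transduction. They were immortalized by p190 Bcr-Abl, and the Sox4 that was captured is the one the retrovirus supplied. The series also has 1 input chromatin library from the same kind of cells, whose own values were not used here. The labels name streptavidin beads for the capture and give SOX4 in the antibody field. With 1 library per group there is no replicate, so no test between conditions was made and no p-value is given, and tags, folds and scores order the peaks of this list alone. Chromatin from cells lacking the tagged protein was not analysed here, so how much of a peak depends on Sox4 was not tested. A peak list holds no expression values with which to check the cell type.

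Sox4 is a transcription factor of the SOX family, which binds the minor groove of DNA through an HMG box and bends it. Loss of Sox4 in mice blocks B-cell development at the progenitor stage. Binding of a transcription factor inside an exon can lie at an internal start of transcription, at an enhancer that overlaps coding sequence, or beside an open promoter. A peak list from pulled-down chromatin gives the place and the strength of the signal, not its function.

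The start windows shown next belong to 3 genes that carried an exonic peak and a second peak over their start, because the letters around a start can then be set beside a measured peak. Hnrnpu, Gm17296 and Def6 are the 3 such genes with the highest exonic scores for which the RefSeq table (build GRCm38.p6) holds 1 start window. Each window runs 5′ to 3′ from 250 bases before the start to 50 after it, at chr1:178337766-178338065 on the minus strand for Hnrnpu, chr8:126475016-126475315 on the minus strand for Gm17296 and chr17:28207528-28207827 on the plus strand for Def6. Capitals mark a match to AACAAT or AACAAAG, 2 short forms of the sequence that SOX proteins prefer, searched on both strands. The peaks are in mm9 coordinates, so whether the peak and the window share the same start was not tested.
Hnrnpu: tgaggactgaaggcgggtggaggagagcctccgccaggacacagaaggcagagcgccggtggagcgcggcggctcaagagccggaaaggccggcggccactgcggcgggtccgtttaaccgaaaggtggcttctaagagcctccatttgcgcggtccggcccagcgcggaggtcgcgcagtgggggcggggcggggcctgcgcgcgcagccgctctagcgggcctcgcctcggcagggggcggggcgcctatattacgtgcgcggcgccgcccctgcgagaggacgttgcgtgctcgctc
Gm17296: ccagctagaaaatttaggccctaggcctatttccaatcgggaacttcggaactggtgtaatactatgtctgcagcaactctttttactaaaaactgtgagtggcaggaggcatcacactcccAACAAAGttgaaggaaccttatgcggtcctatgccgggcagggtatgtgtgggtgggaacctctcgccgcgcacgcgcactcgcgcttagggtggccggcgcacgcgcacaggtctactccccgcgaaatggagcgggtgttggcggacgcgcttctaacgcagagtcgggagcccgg
Def6: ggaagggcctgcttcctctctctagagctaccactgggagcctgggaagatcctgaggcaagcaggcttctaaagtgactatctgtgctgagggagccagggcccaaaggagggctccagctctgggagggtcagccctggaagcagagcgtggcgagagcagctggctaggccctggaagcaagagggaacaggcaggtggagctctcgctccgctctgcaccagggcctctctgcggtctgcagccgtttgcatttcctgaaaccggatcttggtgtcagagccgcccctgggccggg

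The Gm17296 window held 1 match, to AACAAAG, and the other two windows held none. Among the 57 genes with an exonic peak, a start peak and 1 window in the table, 8 windows (14.0%) held AACAAT or AACAAAG, against 5171 of all 32851 windows in the table (15.7%). A match is a description of the letters and not a binding site. The windows lie at the starts, not under the exonic peaks, whose own sequence was not used here.

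The highest exonic scores lay in A230108P19Rik, Gpr97, Gm10789 and Hnrnpu, and most exonic peaks were far weaker. The fold is the authors' value of a peak over the background expected by the peak caller, and the score is read as minus 10 log10 of its p-value. The 285 peaks held 28 to 256 tags with a median of 58 (quartiles 47 and 75), and 19009 tags in all, which is 2.49% of the tags in the list. Their folds ran from 2.52 to 24.9 with a median of 4.0 (quartiles 3.44 and 4.85). Scores ran from 50.1 to 1244.0 with a median of 74.5 (quartiles 59.3 and 112.1). Of the 285 peaks, 8 were at least 10-fold over background (2.81%, 1.22 to 5.46%), beside 4.39% of all peaks, and 13 were at least 8-fold (4.56%, 2.45 to 7.67%), beside 7.41%; both intervals include the share of all peaks. The score was at or above the list's median of 104.9 in 81 exonic peaks (28.4%, 23.3 to 34.04%), beside 50% of all peaks by construction. The other classes outside promoters were below 50% too. The share was 31.9% (25.5 to 38.7%) for peaks at transcript ends, 33.6% downstream, 34.4% upstream, 37.2% (33.9 to 40.6%) for intronic peaks and 38.4% with no gene listed. For promoter peaks it was 56.2%.

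**Figure D1:**
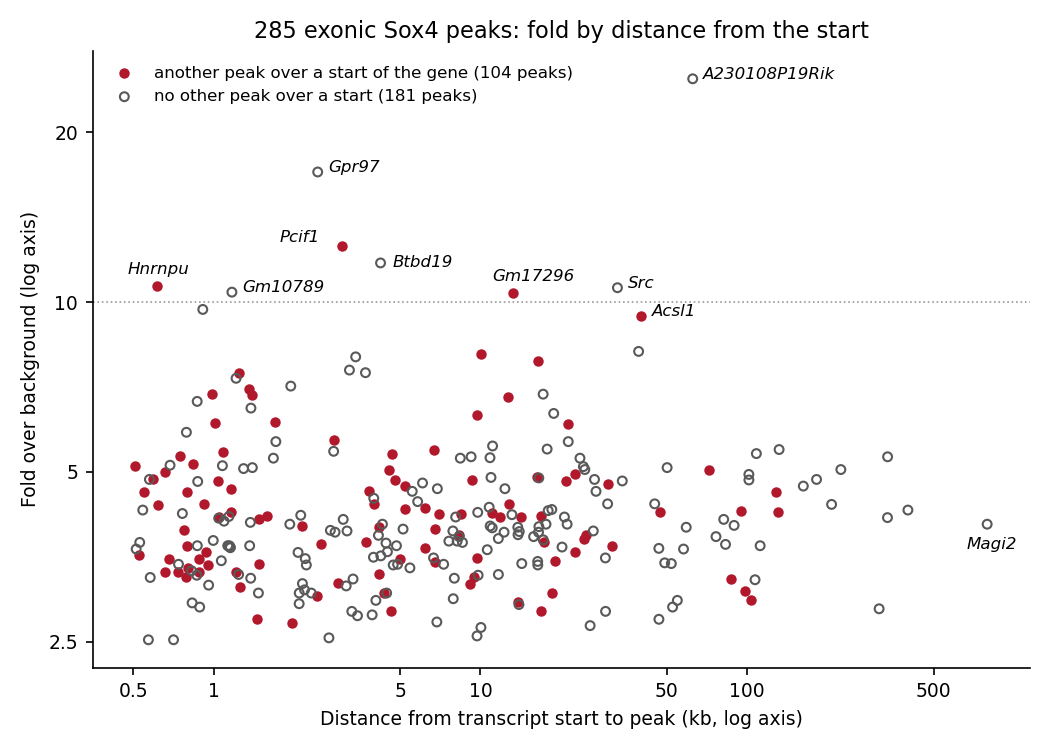
Fold over background (log axis) of each exonic peak against its distance from the start of its closest transcript in kb (log axis). Filled points are the 104 peaks whose gene has another peak over a start, open points the other 181, and the dotted line marks a fold of 10. Most points lie between folds of 2.52 and 10 at every distance, and 8 lie above the line.

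The strongest exonic peak lay in A230108P19Rik, a long noncoding transcript (NR_040333; chromosome 2, 6176812 to 6178082, mm9). It held 256 tags (exact Poisson 95% interval 225.6 to 289.4) with a fold of 24.9, rank 39 of the 8730 peaks by fold, and a score of 1244.0, rank 83 by score. This peak lay 62516 bp from the start and 64575 bp from the end of the transcript, close to its middle, and no other gene was listed within 25 kb. Next came Gpr97, which encodes an adhesion-type G-protein-coupled receptor, with 212 tags (184.4 to 242.5), a score of 899.4 and a fold of 17.0 at 2454 bp from the start (chromosome 8, 97544045 to 97545147). Neither gene had another peak over a start. Of the 285 exonic peaks these had the highest folds, and Pcif1 followed at 12.6.

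The remaining 6 peaks of fold 10 or more lay in Pcif1, Hnrnpu, Src, Btbd19, Gm10789 and Gm17296. Pcif1, which encodes the methyltransferase that modifies an adenosine next to the mRNA cap, had 123 tags (102.2 to 146.8), a score of 464.4 and a fold of 12.6 at 3022 bp from the start (chromosome 2, 164707889 to 164708741). Hnrnpu, encoding an RNA- and scaffold-binding nuclear protein, had 178 tags (152.8 to 206.2), a score of 569.6 and a fold of 10.7 at 612 bp from the start (chromosome 1, 180266138 to 180267303). Src encodes the founding member of a family of tyrosine kinases, and its peak lay deep in the gene, 32642 bp from the start, with 156 tags (132.5 to 182.5) at a fold of 10.6 (chromosome 2, 157282670 to 157283783). Btbd19 had a fold of 11.7 at 4222 bp from its start and 824 bp from its end (chromosome 4, 116792646 to 116794108). Gm10789, a noncoding transcript, had a fold of 10.4 and 181 tags (155.6 to 209.4), and Gm17296 a fold of 10.4 and 125 tags (104.0 to 148.9). The Gm17296 peak lay 13203 bp inside its gene.

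Of these 8 peaks, 5 lay within 5 kb of the start of their gene, beside 138 of all 285 exonic peaks (48.4%). In genes without another peak over a start lay 5 of the 8, beside 181 of the 285. Just below a fold of 10 stood Angptl6, which encodes a secreted angiopoietin-like protein (fold 9.71, score 371.3, 910 bp from the start), and Acsl1, encoding a long-chain acyl-CoA ligase (fold 9.47, score 214.8, 40069 bp from the start). Dab2ip, which encodes a GTPase-activating protein of Ras, completed the 10 highest scores with a score of 358.9 and a fold of 8.18. Its peak lay 39185 bp from the start of the listed transcript.

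Exonic peaks were wider and held fewer tags per kb than intronic peaks, at a lower fold. Whether the annotation calls a peak exonic by any overlap, by its midpoint or by its summit is not stated. Whether that rule bears on the width of the class was not tested. The median width was 848 bp (quartiles 721 and 979) for exonic and 785 bp (697 and 928) for intronic peaks. The median number of tags was 58 for exonic and 59 for intronic peaks, so that tags per kb had medians of 67.7 (63.3 and 77.3) and 71.8 (66.0 and 82.1). The median fold of 4.0 for exonic peaks had an order-statistic 95% interval of 3.87 to 4.16, against 4.44 (4.35 to 4.60) for the 841 intronic peaks. Peaks at transcript ends (TES class) had a median fold of 4.08 (3.92 to 4.19) and promoter peaks one of 4.44 (4.44 to 4.51). For tags per kb, the median's interval was 66.5 to 68.8 for exonic peaks. The TES class had a median of 70.0 (67.8 to 72.1), so exonic and TES intervals overlap for fold and for tags per kb. These intervals are for the medians within 1 library, with peaks taken as independent, and take no account of the spread between cultures.

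**Figure D2:**
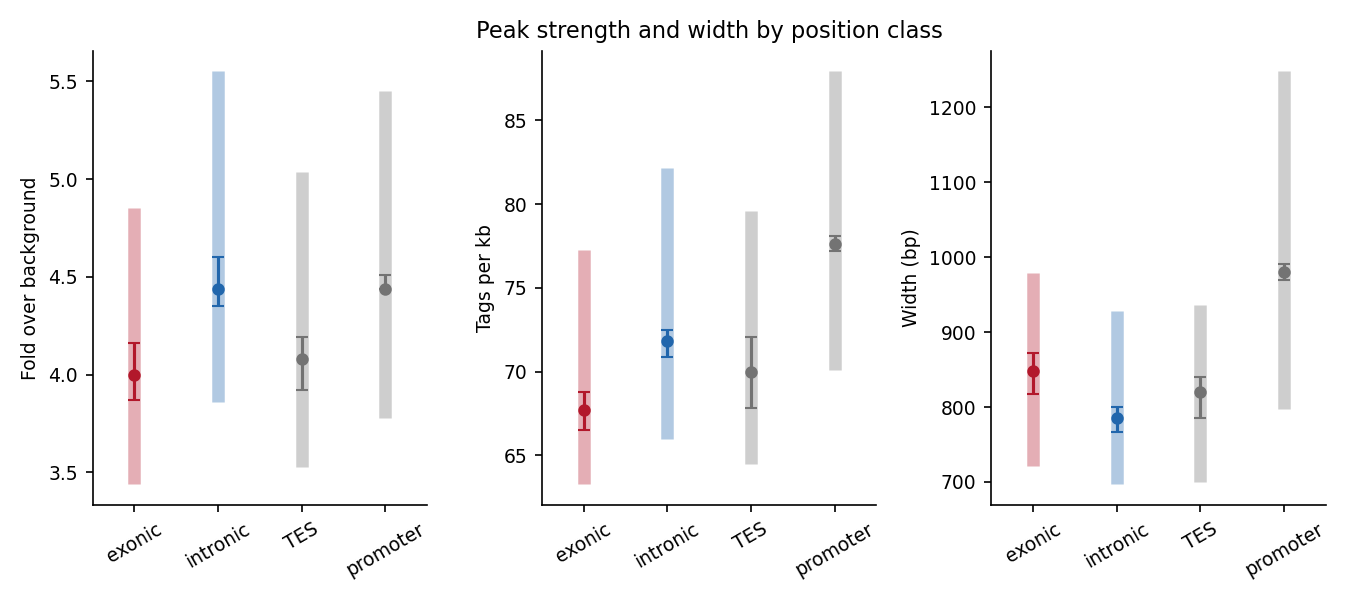
Fold over background, tags per kb and width in bp for the exonic, intronic, TES and promoter classes. Points are medians with order-statistic 95% intervals and wide bars run between the quartiles. Exonic peaks have the lowest median fold (4.0) and the lowest median tags per kb (67.7) of the 4 classes, but both intervals overlap those of the TES class.

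The lower fold was also seen within classes of position and of transcript length. With the exonic and intronic peaks divided by distance to the start into 6 classes, the exonic median fold was the lower in 6 of 6. The same held in 6 of 6 classes of distance to the end and in 6 of 6 classes of transcript length. Between 0.5 and 1 kb from the start, for example, the median fold was 3.73 for exonic and 4.62 for intronic peaks, and beyond 25 kb it was 4.24 and 4.51. All these divisions use the same peaks, so they do not count as separate results. Some classes hold few intronic peaks, with 5 at 0.5 to 1 kb from the end and 4 in transcripts of up to 5 kb. At 1 to 2 kb from the end there were 6, and the medians were 3.92 for exonic and 3.96 for intronic peaks. Tags per kb were lower for exonic peaks in 6 of 6, 6 of 6 and 5 of 6 of these classes, the exception being transcripts of up to 5 kb (68.2 exonic, 66.7 intronic, with 4 intronic peaks). Folds of at least 10 were found in 2.81% of exonic peaks and in 48 of 841 intronic peaks (5.71%, 4.24 to 7.50%), and the intervals of these shares overlap. For TES peaks the share was 2.94% (1.09 to 6.29%). Across the 285 exonic peaks, the fold had little relation to the distance from the start (Spearman's rho 0.07) or to the width (0.09), whereas tags and width went together (0.91). Peaks share 1 library, and tags were counted over the whole width, so these coefficients are descriptions.

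Inside genes, exonic peaks were spread almost evenly along the transcript. Transcript length was rebuilt from the deposited distances as start distance plus width plus end distance. With the transcript divided into 5 equal stretches from start to end, the peaks' midpoints fell into them with 21.4%, 20.4%, 22.5%, 20% and 15.8% of exonic peaks. Intronic peaks leaned towards the start, with 35.9%, 25.4%, 15.7%, 14.9% and 8.09%. The median relative position was 0.48 of the transcript (0.43 to 0.53) for exonic and 0.30 (0.28 to 0.34) for intronic peaks. The end of the transcript was nearer than the start for 134 exonic peaks (47.0%, 41.1 to 53.0%) and for 245 intronic peaks (29.1%, 26.1 to 32.3%). Peaks within about 0.5 kb of a start or an end belong to the promoter or TES classes, which leaves these stretches empty: the exonic peak nearest to a start lay 508 bp inside Yy1, and the one nearest to an end lay 547 bp before that of Rpa1. Such empty stretches take up more of a short transcript, and 34 exonic but 4 intronic peaks lay in transcripts of up to 5 kb. The positions of exonic and intronic peaks were not compared within classes of transcript length.

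**Figure D3:**
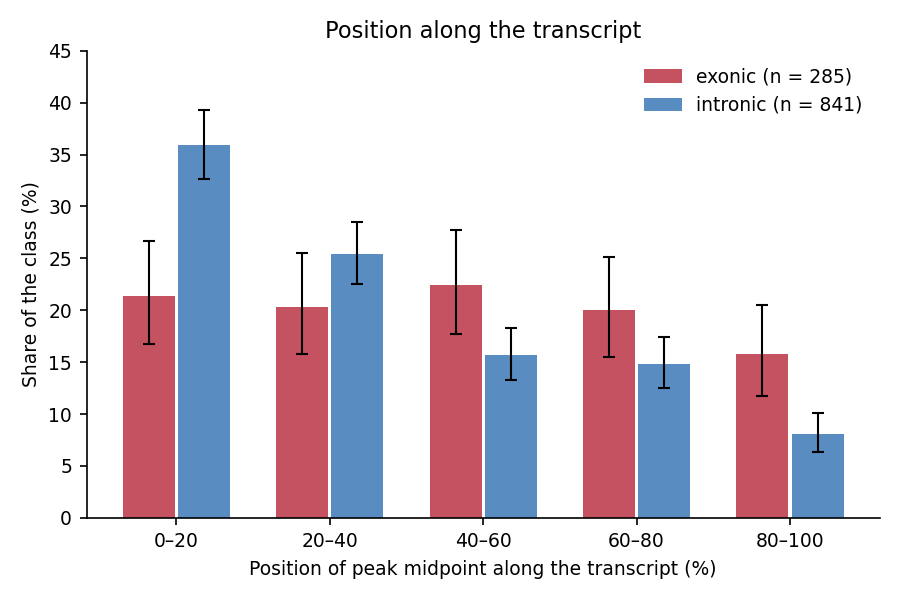
Share of exonic and intronic peaks (percent of each class) by position of the peak's midpoint along the transcript, in 5 equal stretches from start to end. Bars are shares with exact Clopper-Pearson 95% intervals. Exonic shares run from 15.8% to 22.5%, while intronic shares go down from 35.9% in the first stretch to 8.09% in the last.

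Peaks on either side of the edge between the exonic and promoter classes had these values. The 16 exonic peaks that began 508 to 686 bp past a start had a median fold of 4.33 and a median of 68 tags, and the 74 promoter peaks that began 308 to 490 bp past a start had 4.05 and 67.5 tags. Yy1, which encodes a zinc finger factor that bridges promoters and enhancers, was among the exonic ones (fold 5.13, score 223.0, 100 tags). Psmb10, a subunit of the immunoproteasome, lay 512 bp from its start (fold 3.65), and Ing2, a reader of histone methylation, 523 bp from its start (fold 3.56).

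Exonic peaks lay in shorter transcripts than intronic peaks. The median transcript length was 19.1 kb by the rebuilt distances (19096 bp, quartiles 8063 and 45957) for exonic and 72509 bp (29810 and 157154) for intronic peaks. In transcripts of up to 5 kb, 34 of the 38 peaks inside genes were exonic (89.5%, 75.2 to 97.1%), and the share went down with length to 37 of 369 (10.03%, 7.16 to 13.6%) in transcripts over 100 kb. Near transcript ends most inside peaks were exonic, 44 of 50 (88.0%, 75.7 to 95.5%) at 1 to 2 kb from the end, as against 59 of 604 (9.77%, 7.52 to 12.4%) beyond 25 kb. Close to the start the share was lower, at 44 of 109 (40.4%, 31.1 to 50.2%) between 0.5 and 1 kb. How much of each transcript is exon was not used here, so these shares were not set against the exon content.

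**Figure D4:**
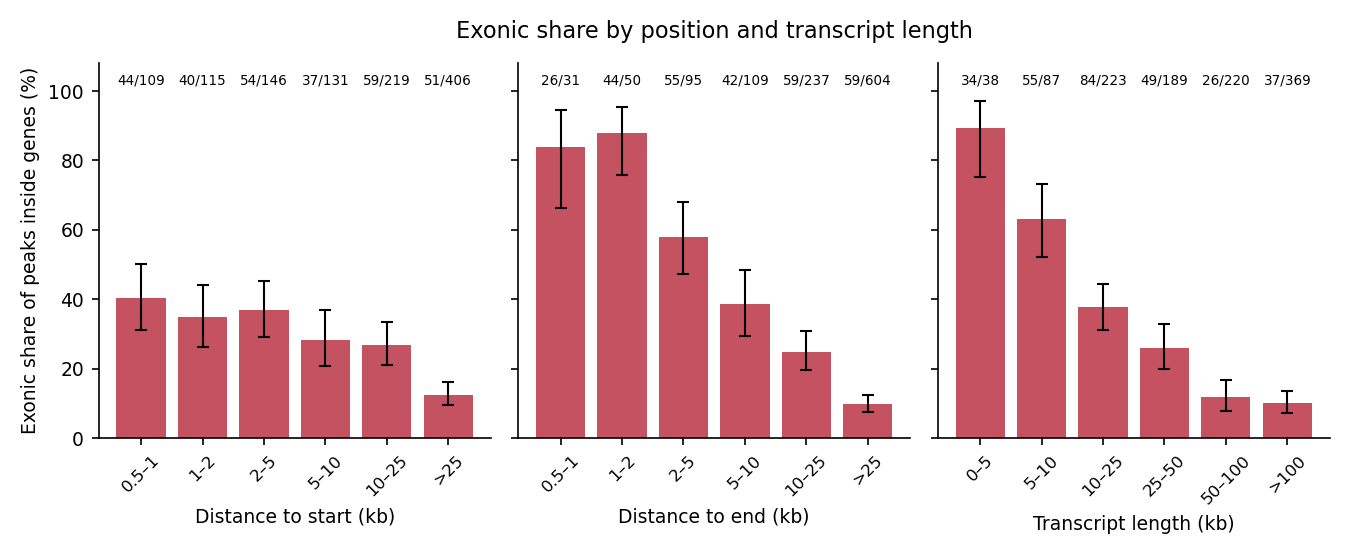
Exonic share of all peaks inside genes (exonic plus intronic, in percent, with exact 95% intervals) by distance to the transcript start, distance to the end and transcript length, all in kb. Numbers above the bars are exonic peaks over inside peaks. The share is highest in transcripts of up to 5 kb (89.5%) and near transcript ends.

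Short genes with an exonic peak included Jun, Tnf and Marcks. Within 5 kb of both ends of the transcript lay 70 exonic peaks (24.6%, 19.7 to 29.98%) and 24 intronic ones (2.85%, 1.84 to 4.22%). Jun, the AP-1 subunit gene, had an exonic peak 1081 bp from its start and 1187 bp from its end (fold 5.42, score 126.6). Tnf, encoding tumour necrosis factor, had one 877 bp from its start and 971 bp from its end (fold 3.33, score 72.3). Marcks, which encodes a membrane-bound substrate of protein kinase C, had 135 tags (113.2 to 159.8) at a score of 300.6 and a fold of 7.50. At the other extreme, 18 exonic peaks lay over 100 kb from the start. The farthest was in Magi2, a synaptic scaffold gene, 794289 bp from the start and 2125 bp from the end (fold 4.04, score 100.8). These genes were chosen after their values were seen.

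Exonic peaks had more genes around them than intronic peaks, as did peaks at promoters and transcript ends. At least 3 genes within 25 kb were listed for 114 exonic peaks (40%, 34.3 to 45.9%), against 112 intronic peaks (13.3%, 11.1 to 15.8%). The share was 48.0% (41.0 to 55.1%) for the TES class, 38.1% (36.9 to 39.4%) for promoter peaks and 32.3% for all peaks, which include the 487 with no gene listed. Within classes of transcript length the shares lay closer together. In transcripts of 5 to 10 kb the share was 72.7% for exonic and 68.8% for intronic peaks, and in those of 25 to 50 kb it was 16.3% and 15.7%. In transcripts of 10 to 25 kb it was 57.1% (45.9 to 67.9%) and 43.2% (34.8 to 51.8%), with intervals that overlap. Another peak lay within 5 kb of 90 exonic peaks (31.6%, 26.2 to 37.3%), against 29.3% (26.2 to 32.5%) of intronic, 25.5% (19.7 to 32.05%) of TES and 13.8% (12.9 to 14.7%) of promoter peaks. Over all peaks this share was 16.5%. For 44 exonic peaks the next peak was under 1 kb away, a count that was not made for the other classes.

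Chromosome 7 held the most, 32 exonic peaks, which made up 5.32% of its 602 peaks (3.66 to 7.42%), above the 3.26% of the whole list. By count, chromosomes 11 (26 of 797, 3.26%) and 2 (25 of 730, 3.42%) followed. The next highest share was on chromosome 8, with 22 of 475 (4.63%, 2.93 to 6.93%). Chromosome 12 had the fewest among the autosomes, 4 of 322 (1.24%, 0.34 to 3.15%), and chromosome X had 3 of 92 (3.26%, 0.68 to 9.23%). The intervals were not adjusted for the number of chromosomes.

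In 104 of the 285 cases (36.5%, 30.9 to 42.4%) the gene of an exonic peak had another peak over one of its starts. For intronic peaks this was 430 of 841 (51.1%, 47.7 to 54.6%). Over all 20949 protein-coding genes, 26.8% were the closest gene of a promoter peak. That share counts genes and not peaks, and a promoter peak need not lie over a start, so the measures differ. Beyond 25 kb from the start it was 11 of 51 exonic peaks (21.6%, 11.3 to 35.3%) and 180 of 355 intronic peaks (50.7%, 45.4 to 56.0%). Within 1 kb of the start it was 23 of 44 (52.3%, 36.7 to 67.5%) and 36 of 65 (55.4%, 42.5 to 67.7%). The exonic peaks of genes without a start peak had a median fold of 3.93, and those of genes with one had 4.20.

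Within the 104 pairs, the exonic peak was more often the weaker by score, as was the intronic peak in the 430 intronic cases. Its score was lower than that of the start peak in 70 of 104 (67.3%, 57.4 to 76.2%), and its fold in 59 of 104 (56.7%, 46.7 to 66.4%). Intronic peaks had the lower score in 309 of 430 (71.9%, 67.4 to 76.1%) and the lower fold in 206 of 430 (47.9%, 43.1 to 52.7%). The exonic and intronic intervals overlap for both measures. Where several peaks lay over starts of a gene, the highest-scoring one was taken, which tilts the comparison by score towards the start peak. Bbc3, Pik3cd and Sh3glb2 enter with both of their exonic peaks against the same start peak, so the pairs are not all independent. Medians were 77.3 for the exonic and 113.5 for the start peak by score, 4.20 and 4.38 by fold, and 60 and 83.5 by tags. The exceptions included genes whose windows are printed above. Hnrnpu had a fold of 10.7 for the exonic peak and 4.83 over the start, separated by a gap of 160 bp. Gm17296 had 10.4 and 3.40, Def6, which encodes a guanine nucleotide exchange factor of lymphocytes, had 6.32 and 3.26, and Pcif1 had 12.6 and 4.70. The opposite order held for Rnf44, a ubiquitin ligase gene, with 3.46 for the exonic peak and 29.6 over the start. It also held for Plxnb1, a semaphorin receptor gene, with 4.95 and 13.4.

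**Figure D5:**
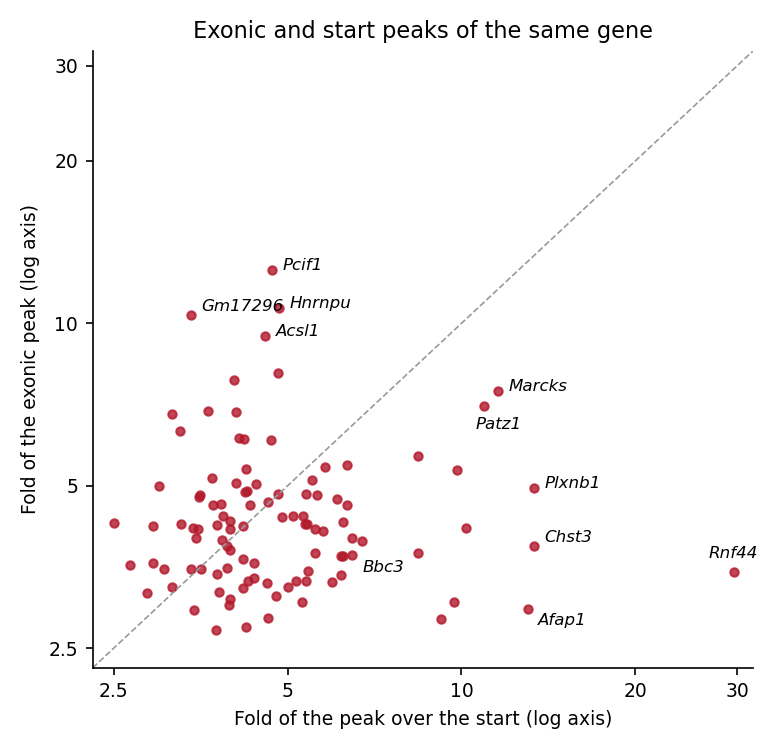
Fold of the exonic peak (vertical, log axis) against fold of the highest-scoring peak over a start of the same gene (horizontal, log axis) for the 104 pairs. The dashed line marks equal folds. Of the points, 45 lie above the line, with Pcif1, Gm17296 and Hnrnpu the highest, and 59 lie below it, with Rnf44 farthest to the right.

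The 285 peaks belonged to 277 genes by their closest transcript, and 8 genes carried 2 exonic peaks each. Bbc3, which encodes the pro-apoptotic protein PUMA, had both within a transcript of 8752 bp, at 2517 bp from the start (84 tags, fold 3.72, score 98.2) and at 4153 bp (54 tags, fold 4.0, score 53.4). Its start was covered by another peak at a score of 488.8 and a fold of 6.46. Pik3cd, encoding the leukocyte catalytic subunit of PI3K, had one of fold 5.37 and score 182.6 and one of fold 2.74 and score 62.5, placed by different transcripts. Itpr1, encoding a calcium release channel, had its pair at opposite ends of the gene, 1093 bp from the start (fold 4.09) and 959 bp from the end (fold 5.32). Sh3glb2 had folds of 6.79 and 3.25, Ppt1 of 3.79 and 3.81, Rasgef1c of 3.99 and 2.96, Dnahc17 of 3.92 and 2.74, and Carns1 of 3.38 and 2.78.

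In 6 lists of genes of B-cell development, recombination, Wnt signalling, survival and chromatin, the members with an exonic peak were Xrcc6, Irf8, Cd93, Csnk1a1 and Bbc3. By closest gene, 1.28% of 20949 protein-coding genes had an exonic peak, 3.16% an intronic and 26.8% a promoter peak. Of 12 V(D)J recombination genes, 1 had an exonic peak, Xrcc6, which encodes the Ku70 end-joining subunit (chromosome 15, 81857803 to 81858806; 69 tags, fold 4.23, score 104.1). Of 23 B-lineage transcription factor genes, 1 did, Irf8, a regulator of B-lymphoid and myeloid fate (chromosome 8, 123271155 to 123271921; 54 tags, fold 4.01, score 73.0). Of 24 pre-BCR and surface or signalling genes it was Cd93, a surface marker of early B cells, with 35 tags at a score of 52.1 and a fold of 3.60. Among 20 Wnt and casein kinase 1 genes it was Csnk1a1, which encodes casein kinase 1 alpha, 1014 bp from the start with 70 tags at a score of 115.3 and a fold of 6.11. Of 21 cell cycle and survival genes it was Bbc3, and of 23 chromatin regulators none (0 to 14.8%). In promoter peaks these 6 lists had 5, 13, 13, 13, 18 and 21 genes, in the order given. The exact interval of each of these exonic shares includes 1.28%.

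Among markers of other lineages and the gene families examined, Klf1 and Hist3h2a and 9 zinc finger genes had an exonic peak. Klf1, the erythroid factor gene, was the 1 of 8 erythroid markers (fold 4.81, score 159.6, 871 bp from the start). No exonic peak belonged to the 11 T-lineage, 11 myeloid or 8 hepatocyte markers. Zinc finger genes by symbol had 9 of 466 (1.93%, 0.89 to 3.63%). The highest were Zfp36l2, whose product binds AU-rich RNA (fold 3.95, score 210.8), Zfp385a (fold 4.43, score 177.9), Zfp91 (fold 5.16, score 117.3) and Zfp521 (fold 4.39, score 104.2), a factor of B-cell leukaemia models. Histone genes had 1 of 76, Hist3h2a (fold 4.86, score 60.03), while 39 homeobox cluster genes and 69 protocadherin genes had none. No immunoglobulin or T-cell receptor segment and no microRNA gene had one, but how many of these the annotation held was not counted. Peaks within about 0.5 kb of a start or an end fall in other classes, so very short genes such as microRNA genes cannot carry an exonic peak. The shortest transcript with one had 1990 bp, and gene length was not taken into account in these shares. The interval of the share includes 1.28% for each lineage list and for the zinc finger, histone, homeobox and protocadherin lists. Noncoding transcripts were the closest for 10 exonic peaks (3.51%, 1.70 to 6.36%), against 5.69% of all peaks. This counts transcripts: by gene class in the RefSeq table, 9 exonic peaks belonged to long noncoding genes and 276 to protein-coding genes. After A230108P19Rik, Gm10789 and Btbd19, the next by score was 9130024F11Rik (fold 5.88, score 340.9).

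No exonic peak lay in genes carried by the retroviral constructs. Sox4, Abl1 and Bcr each had 2 peaks by closest gene, 0 of them exonic. The genes in the series title had none either, with 0 of 1 peak at Rag1, 0 of 2 at Csnk1e and 0 peaks assigned to Rag2.

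Further exonic peaks are given gene by gene. These genes were chosen after their values were seen, they are not complete families, and no group is counted or set against other genes. Among transcription factor genes, Patz1, which encodes a zinc finger factor of lymphocyte development, had 179 tags at a fold of 7.03 (score 354.0). Mnt, encoding a Max-binding repressor that opposes Myc, had 130 tags at a fold of 5.47 (score 234.0). Mycn, the N-Myc gene, had a fold of 3.32 for the exonic peak and 5.96 over its start. Foxo3, a forkhead factor gene that PI3K signalling restrains, had 3.51 for the exonic peak and 3.54 over its start.

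Mtor, the growth-control kinase gene, had a fold of 6.08 (score 165.4) at 21247 bp from its start. Pik3r2, encoding a regulatory subunit of PI3K, had a fold of 4.99 at 659 bp, and Pik3ip1, encoding an inhibitor of PI3K, one of 3.48 at 1068 bp. Polm encodes DNA polymerase mu, which fills ends during immunoglobulin light chain rearrangement, and its peak had 58 tags (44.04 to 74.98) at a fold of 4.67 (score 117.7). Rpa1, encoding a subunit of the single-strand binding complex, had a fold of 4.24, and Parp1, encoding a sensor of DNA breaks, one of 3.05.

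Ifnlr1, a chain of the interferon lambda receptor, had a fold of 6.87 (score 230.8), and Crlf2, the receptor chain for TSLP, a fold of 3.68 (score 105.5). The chemokine receptor gene Ccr10 had a fold of 5.13, and Tnfrsf1a, a receptor gene for tumour necrosis factor, one of 4.89. Baz2a, encoding a subunit of the nucleolar remodelling complex, had a fold of 7.50 (score 149.3). Setd8, the histone H4 lysine methyltransferase gene, had 123 tags at a fold of 3.51 (score 163.3), and Uhrf1, whose product recruits the maintenance DNA methyltransferase, a fold of 4.29 (score 59.1). Ptch1, the Hedgehog receptor gene, had a fold of 6.14 (score 211.2), and the Notch pathway genes Jag2 and Notch3 had folds of 3.42 and 2.92.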

How the data were processed

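Sox4 bioChIP was measured in 1 library, with 1 input library not used here. The submitters' processing notes name MACS 1.4.2, Bowtie 0.12.8 and the build mm9, without parameters. Whether MACS used the input as its control is unknown here. Per the file headers, the deposited list gives per peak the tag count, the fold (a ratio to the expected background), the p-value as a score (minus 10 log10, lowest value 50.0), positions and distances to RefSeq transcripts. Sequencing depth is unknown, so tag counts were not scaled.

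Peaks with position class exon were taken. In all 8243 annotated peaks the closest gene was the one with the nearest start. A start peak is a peak at distance 0 from a start of any transcript of that gene symbol, and the highest-scoring one was kept. Closest genes of 278 exonic peaks matched the RefSeq table of build GRCm38.p6 through the accession, 5 through the symbol and 2 through a former symbol, and strand came from its start windows. Shares have exact Clopper-Pearson, tags exact Poisson and medians order-statistic 95% intervals, which cover counting error only. Calculations used Python 3.11.15, pandas 2.3.3 and SciPy 1.17.1, and the derived positions were tested on simulated data. Named were the 10 highest peaks by score and by fold, genes with 2 exonic peaks, and up to 4 members per list by score. Not every peak so named is described, and other genes in the text were chosen after their values were seen. Members and lists were chosen with earlier results of these data known. The motif search under the peaks was not run, and RefSeq start windows were searched in its place, with none printed from chromosome 18.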

Additional observations from a re-analysis of the deposited data

How the results depend on the processing

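The exonic share of the list of 3.26% was 1.86% among peaks with the median score or above and 2.09% among peaks with a fold of 10 or more. With the median score or above, the median fold of exonic peaks was 5.39 and their median width 998 bp. Over 5 kb from every listed start, the median fold (4.12) and the share with a fold of 10 or more (2.04%) stayed within the intervals given. The median tags per kb (66.9) also stayed within its order-statistic interval of 66.5 to 68.8. The same held for the median fold in peaks of 1 kb or narrower (3.97) and without those of fold 10 or more (3.98), both chosen after seeing the data. The share near a start was 48.4% within 5 kb, 15.4% within 1 kb and 61.4% within 10 kb. The share nearer the end (47.0%) was the same from midpoints, by construction, and over every listed gene, and 46.8% from summits (231 peaks with a strand). Another peak had the same closest gene for 51.9% of exonic peaks, against 66.7% of intronic peaks. Another peak listed that gene within 25 kb for 74.0% of exonic peaks. The share with a start peak (36.5%) was 31.97% beyond 5 kb and 35.1% by accession, also chosen after seeing the data. Of the peaks inside genes 25.3% were exonic, which became 37.3% within 5 kb of the start, 14.3% at a fold of 10 or more and 20.6% at the median score or above, settings chosen after seeing the data. Motif counts in windows around summits were not run. No paired analysis was possible because each group has 1 library, and for the same reason no library could be left out. Unknown depth and the lack of a second library limit every value, and 74 of 285 exonic peaks scored under 60, close to the lowest score in the list.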
